A study of Rattus norvegicus with 16 samples.

Results

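Gene expression was compared between the ovaries of rats that carried both a lost copy of Brca1 and a course of olaparib, and the ovaries of wild-type rats given vehicle. The 8 arrays compared were those whose titles name BRCA1+/- ovaries injected with olaparib, replicates 1 to 4, and wild-type vehicle ovaries, replicates 1 to 4, out of 16 arrays in the series. The animals were females of Jcl:SD, a stock of Sprague-Dawley rats, and each array held the RNA of 1 ovary sample. The labels do not say whether the samples of a group came from separate rats, so p-values measure only the spread between these samples. The BRCA1+/- olaparib rats (4 arrays) had received olaparib at 50 mg/kg under the skin once a day for 14 days from 3 weeks of age, with the ovaries removed 24 h after the final dose. The WT vehicle rats (4 arrays) are named only as wild-type with vehicle. The sources used here do not give the vehicle's composition, these animals' injection scheme and age, or how and where Brca1 was altered. The other 8 arrays, 4 of BRCA1+/- vehicle and 4 of WT olaparib, served to estimate the spread between samples and to set the double difference beside the single ones. Whole ovaries were used, so fewer cells of a type and less RNA per cell cannot be told apart in any value below.

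BRCA1 acts in homologous recombination, which repairs double-strand breaks from an intact copy of the sequence. PARP1 and PARP2 bind breaks in single strands and build chains of ADP-ribose that recruit repair proteins. Olaparib blocks this activity and holds the enzymes on DNA, so that breaks pass to the recombination pathway when DNA is copied, and cells without BRCA1 function are sensitive to the drug. Oocytes of the ovarian reserve are not dividing but carry a strict damage checkpoint, whereas granulosa cells of growing follicles divide rapidly.

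The genes with the smallest p-values were each read by 60-base probes, and the letters of 8 of the 12 leading ones are shown because the values below are the brightness of exactly these sequences. They are given 5′ to 3′ as in the array files, in lower case throughout since no stretch is singled out, with positions on the rat build rn4 named in the file headers.
Ccl1: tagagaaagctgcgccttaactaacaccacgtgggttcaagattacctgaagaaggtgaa
H19: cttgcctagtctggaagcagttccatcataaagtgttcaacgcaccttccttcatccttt
Zfhx4: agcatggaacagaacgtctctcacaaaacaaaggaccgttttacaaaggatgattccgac
Chd7: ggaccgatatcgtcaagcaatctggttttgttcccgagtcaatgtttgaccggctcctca
Rnd1: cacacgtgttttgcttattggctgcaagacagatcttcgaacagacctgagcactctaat
Ly6g5b: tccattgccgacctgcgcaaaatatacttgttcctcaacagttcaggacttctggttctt
Kiss1: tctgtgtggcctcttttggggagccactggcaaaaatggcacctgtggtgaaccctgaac
Prm1: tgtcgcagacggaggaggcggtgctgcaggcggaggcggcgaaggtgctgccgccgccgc
The probes lie at chromosome 10, 70380681 to 70380740 (Ccl1), chromosome 1, 202822987 to 202823046 (H19), chromosome 2, 98550032 to 98550091 (Zfhx4), chromosome 5, 22707949 to 22709260 (Chd7) and chromosome 7, 137420891 to 137420950 (Rnd1). Those of the genes with lower values lie at chromosome 20, 3770677 to 3770736 (Ly6g5b), chromosome 13, 46244823 to 46244882 (Kiss1) and chromosome 10, 4808417 to 4808567 (Prm1). The Chd7 and Prm1 positions span 1312 and 151 bases, more than the probe's length. Of the 60 bases of the Prm1 probe 46 are G or C, against 27 in the H19 probe.

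Values are log2 signals, the log2 of an array's spot brightness minus the 75th percentile of that array, so that 0 is the 75th percentile and 1 unit is a doubling. Levels of different probes are not comparable. Over the 8 arrays that percentile ranged from 206 to 536 units of processed signal, 55.5% to 59.7% of probes were well above background, and 0 spots were saturated. Pearson correlations over the tested genes were 0.942 to 0.981 within BRCA1+/- olaparib, 0.956 to 0.976 within WT vehicle and 0.938 to 0.992 between the groups, so arrays of different groups were as alike as arrays of the same group. Ovary markers were read on all 8 arrays. Well above background on each of them were 24 of 25 tested granulosa cell genes, 21 of 21 of growing oocytes and 18 of 18 of theca cells. Of 18 oocyte genes of small follicles only 9 were bright enough to be tested, and 8 were well above background on all 8 arrays. These counts do not exclude tissue next to the ovary, which is described below. Replicates 1 and 2 of each group lay on slide 1 and replicates 3 and 4 on slide 2. On both slides a group always filled the same column, so column and group cannot be told apart.

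Brca1, the gene of the genotype, had log2 signals of -0.50, -0.82, -1.18 and -0.37 on BRCA1+/- olaparib arrays 1 to 4, against -0.15, -0.11, -0.70 and -0.81 on WT vehicle arrays 1 to 4. The groups overlapped, with BRCA1+/- olaparib replicates 1 and 4 above WT vehicle replicates 3 and 4. The mean was -0.72 ± 0.36 in BRCA1+/- olaparib and -0.44 ± 0.36 in WT vehicle (SD, n = 4 each), a log2 difference of -0.28 ± 0.27 (± SE, 95% interval -0.86 to 0.31). Limma gave an unadjusted p of 0.325 and an adjusted p of 0.9998, with values of -0.53 on slide 1 and -0.02 on slide 2. A lower Brca1 level was thus not detectable with 4 arrays a group, and since the place of the probe relative to the altered part of the gene is not known, the value is no check of the genotype.

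Parp1, the main target of olaparib, had log2 signals of 4.33, 4.24, 3.99 and 4.06 on BRCA1+/- olaparib arrays 1 to 4, against 4.42, 4.40, 4.31 and 4.10 on WT vehicle arrays 1 to 4. All 8 values lay within a narrow band, and the difference was -0.15 ± 0.16 (± SE, 95% interval -0.49 to 0.19). Parp2, the second target, had log2 signals of 1.01, 0.94, 0.61 and 1.43 on BRCA1+/- olaparib arrays 1 to 4, against 1.20, 1.57, 0.40 and 1.21 on WT vehicle arrays 1 to 4. Its groups also overlapped, with a difference of -0.10 ± 0.28 (95% interval -0.70 to 0.51), -0.41 on slide 1 and 0.22 on slide 2. Leaving out WT vehicle replicate 2 turned it to 0.06, and leaving out BRCA1+/- olaparib replicate 3 to 0.03. Neither passed, with adjusted p-values of 0.9998 in limma.

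**Figure D1:**
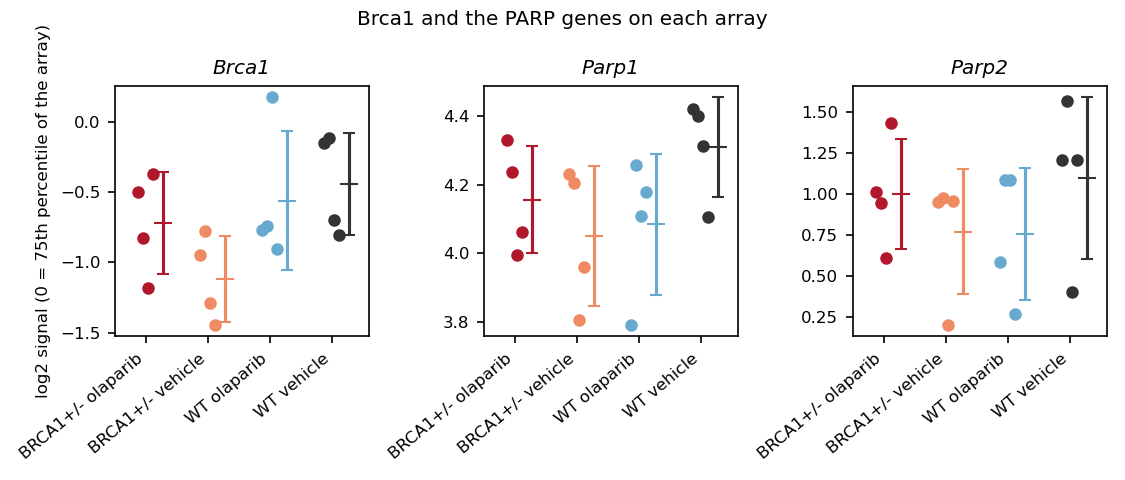
Log2 signal of Brca1, Parp1 and Parp2 on each array (y axis, 0 = 75th percentile of the array) in the 4 groups (x axis, BRCA1+/- olaparib at the left and WT vehicle at the right). Points are arrays and bars are the mean ± SD of 4 arrays. For each gene the BRCA1+/- olaparib points overlap those of WT vehicle.

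BRCA1+/- olaparib against WT vehicle asks what the lost copy and the drug do together. No gene passed: limma called 0 of 20215 genes at an adjusted p under 0.05 (0% of genes called in either direction, lowest adjusted p 0.9998). At an unadjusted p under 0.05 there were 267 genes (1.32% of those tested), 76 higher in BRCA1+/- olaparib (0.376%) and 191 lower (0.945%). If no gene differed, 1011 genes would be expected at that threshold, more than were seen. All 4 BRCA1+/- olaparib arrays lay above all 4 WT vehicle arrays for 127 genes (0.628%) and below them for 156 (0.772%), 283 genes apart in all (1.4%). Groups of 4 arrays also separate by chance, so groups apart in a single gene below only describe its values. Differences were positive for 43.9% of genes and negative for 56.1%, with a median of -0.04. Their median size was 0.168, while the 95% interval of a gene reached 0.634 to either side at the median, so most differences were too small for these arrays to resolve.

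The split between higher and lower genes depended on the fit and the scaling. A fit of the 8 arrays alone gave 521 genes at an unadjusted p under 0.05, 291 higher and 230 lower, and scaling by the array median gave 102 higher and 154 lower. Each called 0 genes. Within slide 1 alone limma called 0 genes with 252 at an unadjusted p under 0.05, and within slide 2 alone 0 with 729. The sign of the difference was the same on both slides for 10242 of the 20215 genes. It was the same for 266 of the 267 genes at an unadjusted p under 0.05. Those genes were chosen by a p over both slides, which favours equal signs, so agreement of the slides in such genes is no replication.

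Among the 12 genes with the smallest p in the higher direction were genes of immune signalling, of chromatin, of cell adhesion and a growth-related imprinted RNA. None passed, and the adjusted p of each was 0.9998. Ccl1, a chemokine that attracts cells bearing CCR8, had log2 signals of -5.45, -4.86, -5.06 and -4.99 on BRCA1+/- olaparib arrays 1 to 4, against -6.80, -6.31, -5.86 and -6.67 on WT vehicle arrays 1 to 4. All 4 BRCA1+/- olaparib values lay above all 4 WT vehicle values, but the probe was well above background on 3 arrays of BRCA1+/- olaparib and 0 of WT vehicle. It is therefore given as at least 1.23-fold higher (measured means -5.09 ± 0.26 in BRCA1+/- olaparib and -6.41 ± 0.42 in WT vehicle (SD, n = 4 each), unadjusted p 0.00312), and after normexp background correction the difference was -0.06. Such bounds, here and below, cover only the measured means on this scale, not sampling error or another background correction.

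H19, a non-coding RNA expressed from the maternal copy and abundant in growing tissue, had log2 signals of 1.11, 2.32, 2.36 and 1.25 on BRCA1+/- olaparib arrays 1 to 4, against 0.44, 0.26, 0.76 and 0.65 on WT vehicle arrays 1 to 4. BRCA1+/- olaparib replicates 2 and 3 were highest, and replicates 1 and 4 still lay above all WT vehicle arrays. The difference was 1.23 ± 0.39 (± SE, 95% interval 0.39 to 2.07, unadjusted p 0.00695), and it was 1.36 on slide 1 and 1.1 on slide 2. Over the list of 16 imprinted growth genes that holds H19 the median difference was -0.03, with 8 positive and 8 negative members, against -0.04 over all genes tested. Mest, another imprinted gene of that list and expressed from the paternal copy, had a difference of -0.67 ± 0.31 in the other direction.

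Chd7, an ATP-dependent chromatin remodeller, had log2 signals of -2.63, -2.44, -2.43 and -2.95 on BRCA1+/- olaparib arrays 1 to 4, against -2.84, -3.30, -3.42 and -3.13 on WT vehicle arrays 1 to 4. WT vehicle replicate 1 reached into the BRCA1+/- olaparib range, and the difference was 0.56 ± 0.18 (± SE, unadjusted p 0.00817). Zfhx4, a zinc finger homeobox transcription factor, had log2 signals of -4.31, -4.69, -4.64 and -4.89 on BRCA1+/- olaparib arrays 1 to 4, against -5.03, -5.38, -5.94 and -5.97 on WT vehicle arrays 1 to 4. Its groups did not overlap, with a difference of 0.95 ± 0.31, but the probe was well above background on only 1 WT vehicle array and the difference was -0.08 after normexp background correction.

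Slc37a1, a sugar phosphate exchanger of the endoplasmic reticulum, had log2 signals of 1.01, 1.35, 1.27 and 0.84 on BRCA1+/- olaparib arrays 1 to 4, against 0.30, 0.69, 0.71 and 0.32 on WT vehicle arrays 1 to 4. The groups did not overlap, and the difference was 0.61 ± 0.20 (± SE, 95% interval 0.19 to 1.03). A second, dimmer probe of this gene gave -0.08. Rbp7, a retinol-binding protein, had log2 signals of -0.24, 0.20, 1.07 and -0.72 on BRCA1+/- olaparib arrays 1 to 4, against -0.54, -2.20, -0.77 and -1.66 on WT vehicle arrays 1 to 4. BRCA1+/- olaparib replicate 4 fell among the WT vehicle values, and the difference was 1.37 ± 0.47, with 1.22 by the gene's second probe.

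Bmx, a tyrosine kinase of the Tec family, had log2 signals of -2.17, -2.38, -1.83 and -1.81 on BRCA1+/- olaparib arrays 1 to 4, against -2.80, -2.86, -2.57 and -3.27 on WT vehicle arrays 1 to 4. All BRCA1+/- olaparib values lay above all WT vehicle values, and the difference was 0.83 ± 0.29 (± SE, unadjusted p 0.0123). Ubd, which encodes a ubiquitin-like modifier induced by inflammatory cytokines, had log2 signals of -1.28, 0.71, 0.70 and -1.93 on BRCA1+/- olaparib arrays 1 to 4, against -1.72, -1.93, -1.33 and -4.04 on WT vehicle arrays 1 to 4. Replicates 2 and 3 of BRCA1+/- olaparib stood above the rest, replicate 1 lay just above the highest WT vehicle array and replicate 4 within the WT vehicle range, and WT vehicle replicate 4 was lowest. Its difference was 1.80 ± 0.63 (95% interval 0.46 to 3.15).

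Cdh1, the epithelial adhesion molecule E-cadherin, had log2 signals of 1.59, 3.13, 3.52 and 1.45 on BRCA1+/- olaparib arrays 1 to 4, against 1.12, -0.70, 1.88 and -0.54 on WT vehicle arrays 1 to 4. BRCA1+/- olaparib replicates 2 and 3 were high, and replicates 1 and 4 lay among the WT vehicle arrays. The difference was 1.98 ± 0.68 (± SE, 95% interval 0.53 to 3.43), and it was 1.92 without the 6 arrays of high oviduct score described below, which leaves 2 BRCA1+/- olaparib arrays. Rnd1, a small GTPase that loosens actin fibres, differed by 1.24 ± 0.42, Myh13, a muscle myosin heavy chain, by 1.62 ± 0.58 and Kiaa2012 by 1.84 ± 0.64. The WT vehicle values of these 3 genes spread over 1.8 to 3.6 log2 units, their groups overlapped, and the probes were well above background on 2, 2 and 1 WT vehicle arrays. After normexp background correction their differences were 0.05, 0.28 and 0.05. That correction made 16 of the 24 genes' differences more than 1.5 times smaller or turned their sign, and the 8 others were H19, Slc37a1, Cdh1, Rbp7, Ubd, Saal1, Hnrnpul2 and Msc.

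**Figure D2:**
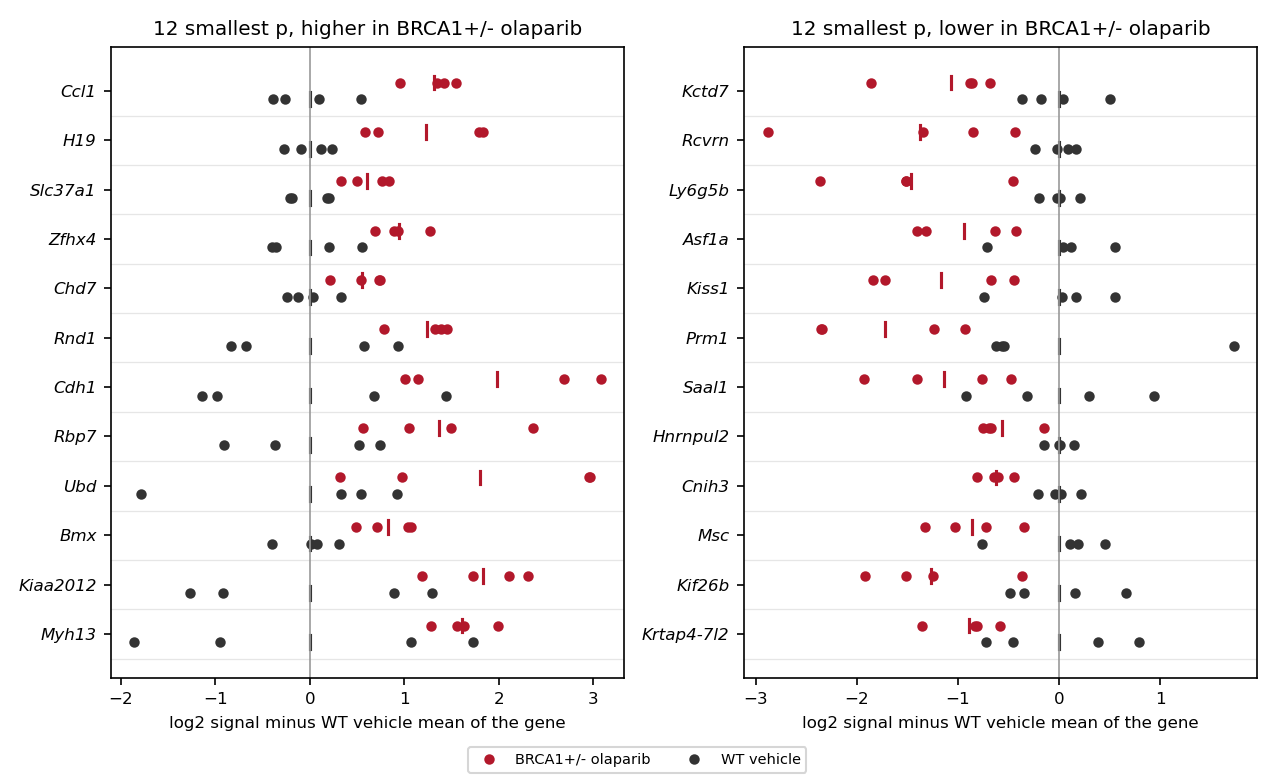
Log2 signal minus the WT vehicle mean of the gene (x axis) for the 12 genes with the smallest unadjusted p in each direction (rows), in BRCA1+/- olaparib (red, upper points) and WT vehicle (dark, lower points). Points are arrays and short bars are group means. The groups of Ccl1, H19, Bmx, Kctd7, Rcvrn and Ly6g5b are apart, while those of Cdh1, Ubd, Asf1a and Msc overlap.

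The 12 genes with the smallest p in the lower direction held genes of chromatin and RNA handling, of the nervous system and reproduction, and several at the edge of detection. None of them passed either (adjusted p 0.9998 in limma). Kctd7, a BTB domain protein linked to a human epilepsy, had log2 signals of -3.04, -3.21, -4.21 and -3.23 on BRCA1+/- olaparib arrays 1 to 4, against -2.32, -2.72, -2.53 and -1.84 on WT vehicle arrays 1 to 4. The groups did not overlap, with BRCA1+/- olaparib replicate 3 lowest. The difference was -1.07 ± 0.30 (± SE, 95% interval -1.72 to -0.42, unadjusted p 0.00331), and -0.61 on slide 1 and -1.53 on slide 2.

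Rcvrn, the photoreceptor calcium sensor recoverin, had log2 signals of -5.30, -5.73, -7.76 and -6.22 on BRCA1+/- olaparib arrays 1 to 4, against -4.90, -5.11, -4.70 and -4.78 on WT vehicle arrays 1 to 4. The probe was well above background on 0 BRCA1+/- olaparib and 4 WT vehicle arrays, so it was at least 1.67-fold lower (measured means -6.25 ± 1.07 in BRCA1+/- olaparib and -4.87 ± 0.18 in WT vehicle (SD, n = 4 each)). Ly6g5b, a small surface protein gene of the Ly6 family, had log2 signals of -5.34, -6.40, -6.40 and -7.25 on BRCA1+/- olaparib arrays 1 to 4, against -4.88, -4.91, -4.68 and -5.09 on WT vehicle arrays 1 to 4. It too had 0 BRCA1+/- olaparib arrays well above background, against 3 of WT vehicle, and was at least 1.66-fold lower (measured means -6.35 ± 0.78 in BRCA1+/- olaparib and -4.89 ± 0.17 in WT vehicle (SD, n = 4 each)). In both genes all BRCA1+/- olaparib values lay below all WT vehicle values. Normexp background correction gave log2 differences of -0.38 for Rcvrn and -0.38 for Ly6g5b.

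Prm1, the protamine that packs sperm DNA, had log2 signals of -5.21, -5.52, -6.63 and -6.62 on BRCA1+/- olaparib arrays 1 to 4, against -4.90, -4.83, -2.55 and -4.82 on WT vehicle arrays 1 to 4. WT vehicle replicate 3 stood far above every other array, and the other 3 lay just above BRCA1+/- olaparib. With 0 BRCA1+/- olaparib and 4 WT vehicle arrays well above background it was at least 2.48-fold lower (measured means -5.99 ± 0.74 in BRCA1+/- olaparib and -4.28 ± 1.15 in WT vehicle (SD, n = 4 each)). Normexp background correction gave a log2 difference of -0.46 for Prm1. Kiss1, which encodes the reproductive neuropeptide kisspeptin, had log2 signals of -6.42, -6.31, -5.26 and -5.03 on BRCA1+/- olaparib arrays 1 to 4, against -4.42, -4.56, -5.32 and -4.03 on WT vehicle arrays 1 to 4. Replicates 1 and 2 of BRCA1+/- olaparib were lowest and replicates 3 and 4 overlapped WT vehicle. Its difference was -1.17 ± 0.39 (± SE), with the probe well above background on 2 BRCA1+/- olaparib and 3 WT vehicle arrays.

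Asf1a, a chaperone of histones H3 and H4, had log2 signals of -4.17, -4.38, -5.15 and -5.06 on BRCA1+/- olaparib arrays 1 to 4, against -4.46, -3.62, -3.19 and -3.70 on WT vehicle arrays 1 to 4. WT vehicle replicate 1 lay inside the BRCA1+/- olaparib range, and the difference of -0.94 ± 0.31 (± SE) was -0.23 on slide 1 and -1.66 on slide 2. Hnrnpul2, a ribonucleoprotein that takes part in the resection of DNA breaks, had log2 signals of 0.75, 0.22, 0.15 and 0.20 on BRCA1+/- olaparib arrays 1 to 4, against 0.89, 0.90, 0.74 and 1.04 on WT vehicle arrays 1 to 4. Replicate 1 of BRCA1+/- olaparib lay at the lowest WT vehicle value and the other 3 lay below it, a difference of -0.57 ± 0.19, with -0.20 by a second probe. Saal1 had log2 signals of 0.59, -0.05, -0.57 and 0.88 on BRCA1+/- olaparib arrays 1 to 4, against 0.44, 2.29, 1.03 and 1.65 on WT vehicle arrays 1 to 4. Replicates 1 and 4 of BRCA1+/- olaparib overlapped WT vehicle, and the difference was -1.14 ± 0.38.

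Cnih3, an auxiliary subunit of AMPA-type glutamate receptors, had log2 signals of -3.43, -3.63, -3.59 and -3.79 on BRCA1+/- olaparib arrays 1 to 4, against -3.19, -3.03, -2.76 and -2.96 on WT vehicle arrays 1 to 4. Its groups did not overlap, and its difference was -0.62 ± 0.21 (± SE, 95% interval -1.07 to -0.17), with -0.42 on slide 1 and -0.83 on slide 2. Msc, the basic helix-loop-helix repressor musculin, had log2 signals of -0.32, -0.70, -1.31 and -1.01 on BRCA1+/- olaparib arrays 1 to 4, against 0.22, 0.14, -0.74 and 0.48 on WT vehicle arrays 1 to 4. WT vehicle replicate 3 overlapped BRCA1+/- olaparib, and the difference was -0.86 ± 0.29, with -0.90 by its second probe. Kif26b, a kinesin family member, differed by -1.26 ± 0.43 and Krtap4-7l2, a keratin-associated protein gene, by -0.89 ± 0.31. Both were close to background, on 1 and 2 BRCA1+/- olaparib arrays well above it against 4 and 4 WT vehicle arrays.

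Detection itself differed for few genes. Of 20215 genes, 9 were well above background on all 4 BRCA1+/- olaparib and 0 WT vehicle arrays (0.0445%), and 5 the other way round (0.0247%). Those with a symbol in the first set were Ptprh, Crybg2, Pla2g10 and Dgkb, and in the second Rcvrn and Prm1. Ptprh, a receptor tyrosine phosphatase of epithelia, had log2 signals of -4.96, -5.18, -1.86 and -2.21 on BRCA1+/- olaparib arrays 1 to 4, against -5.89, -7.03, -6.79 and -7.56 on WT vehicle arrays 1 to 4, and was at least 3.55-fold higher (measured means -3.55 ± 1.76 in BRCA1+/- olaparib and -6.82 ± 0.70 in WT vehicle (SD, n = 4 each), unadjusted p 0.035, adjusted p 0.9998). Replicates 3 and 4 of BRCA1+/- olaparib, the arrays with a high oviduct score, were the high ones. The log2 difference of Ptprh was 0.49 after normexp background correction.

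Crybg2, a crystallin-like domain gene, had log2 signals of -4.70, -5.12, -0.99 and -2.29 on BRCA1+/- olaparib arrays 1 to 4, against -5.28, -5.46, -5.03 and -5.90 on WT vehicle arrays 1 to 4. Again replicates 3 and 4 were high, and it was at least 4.17-fold higher (measured means -3.28 ± 1.97 in BRCA1+/- olaparib and -5.41 ± 0.37 in WT vehicle (SD, n = 4 each)). Its difference was 0.50 without the 6 arrays of high oviduct score. Pla2g10, a secreted phospholipase A2, was at least 1.58-fold higher (measured means -4.73 ± 0.92 in BRCA1+/- olaparib and -6.41 ± 1.16 in WT vehicle (SD, n = 4 each)), with replicate 3 of BRCA1+/- olaparib at -3.35 and the others at -5.26 to -5.08. Its log2 difference was 0.05 after normexp background correction. Dgkb, a diacylglycerol kinase, was at least 1.41-fold higher (measured means -4.86 ± 0.69 in BRCA1+/- olaparib and -5.57 ± 0.57 in WT vehicle (SD, n = 4 each)), with overlapping groups and a difference of -0.08 after normexp background correction.

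The DNA repair genes were examined as lists, and no member of any of the 36 gene lists passed (0% of all genes called). In the homologous recombination and Fanconi list, 14 of 41 tested members had a positive difference, against 43.9% of all genes, and the median was -0.04, against -0.04 over all genes. Differences ran from -0.42 to 0.47. Rad52, which anneals single strands, had log2 signals of -0.17, -0.48, -0.74 and -0.92 on BRCA1+/- olaparib arrays 1 to 4, against -0.44, -0.16, -0.11 and -0.27 on WT vehicle arrays 1 to 4. BRCA1+/- olaparib replicates 2 to 4 lay below WT vehicle, a difference of -0.33 ± 0.18 (± SE) that was -0.03 on slide 1 and -0.64 on slide 2. A second, dimmer probe of Rad52 gave -0.46. Brcc3, a deubiquitinase in a BRCA1 complex, differed by 0.39 ± 0.25.

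In the base excision and single-strand break list, the pathway that PARP1 serves, 12 of 29 tested members had a positive difference and the median was -0.07. Mutyh, a glycosylase that removes adenine opposite oxidised guanine, had log2 signals of 0.21, -0.24, 0.18 and 0.03 on BRCA1+/- olaparib arrays 1 to 4, against 0.07, 0.62, 0.72 and 0.87 on WT vehicle arrays 1 to 4. WT vehicle replicate 1 overlapped BRCA1+/- olaparib and the other 3 lay above it. The difference was -0.52 ± 0.22 (± SE, 95% interval -1.0 to -0.05, unadjusted p 0.0318), -0.49 by a second probe, and Mutyh was the 1 member of 29 at an unadjusted p under 0.05, a threshold that 1.32% of all genes passed. Neil3, a glycosylase of replicating cells, differed by -0.73 ± 0.50, with the probe well above background on 2 BRCA1+/- olaparib and 3 WT vehicle arrays.

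In the list of end joining and damage signalling 7 of 23 tested members had a positive difference, and the median was -0.16. Prkdc, the catalytic subunit of DNA-PK, had log2 signals of -1.60, -1.65, -1.73 and -1.5 on BRCA1+/- olaparib arrays 1 to 4, against -1.29, -1.30, -1.29 and -1.39 on WT vehicle arrays 1 to 4. All BRCA1+/- olaparib values lay below all WT vehicle values, with a difference of -0.30 ± 0.20 (± SE, unadjusted p 0.143 in limma). That SE pools the spread of all 4 groups. The SD of Prkdc was 0.10 in BRCA1+/- olaparib and 0.05 in WT vehicle, against 0.43 in WT olaparib and 0.25 in BRCA1+/- vehicle. Other, dimmer probes of Prkdc gave -0.07 and -0.08. The p53 target list had a median of 0.02 over 28 members, 17 of them positive. Cdkn1a, the cell cycle inhibitor p21, was at 4.52 ± 0.36 in BRCA1+/- olaparib and 4.49 ± 0.55 in WT vehicle (SD, n = 4 each), a difference of 0.03 ± 0.53.

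Perp, a p53 target that is also a desmosome protein of epithelia, had log2 signals of -0.60, -0.82, 2.34 and 1.12 on BRCA1+/- olaparib arrays 1 to 4, against -0.99, -2.09, -1.61 and -1.85 on WT vehicle arrays 1 to 4. The groups were apart, with replicates 3 and 4 of BRCA1+/- olaparib highest, and its difference of 2.15 ± 1.04 (± SE) was 0.93 without the 6 arrays of high oviduct score. Ephx1, an epoxide hydrolase in the p53 list, differed by 0.97 ± 0.43 (unadjusted p 0.0411). In the list of the oocyte damage checkpoint and BCL2 family 12 of 23 tested members had a positive difference, and the median was 0.01. Tp63, whose product guards the oocyte genome, was at 1.67 ± 0.19 in BRCA1+/- olaparib and 2.18 ± 0.66 in WT vehicle (SD, n = 4 each).

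Among the 50 cell cycle and DNA replication genes 18 differences were positive and 32 negative, with a median of -0.07 and a range of -0.47 to 0.45. The list median was -0.31 on slide 1 and 0.15 on slide 2. Foxm1, a transcription factor of mitosis, differed by -0.28 ± 0.23 (± SE), Cenpa, the centromeric histone, by -0.32 ± 0.29 and Mki67, a proliferation marker, by -0.08 ± 0.34. In the list of NAD synthesis and consumption, which shares its substrate with PARP1, the median was -0.06, and Sirt6, a NAD-dependent deacylase, differed by -0.33 ± 0.18. In the list of drug efflux and olaparib handling the median was 0.04. Nr1i2, a xenobiotic receptor of that list, differed by 1.42 ± 0.78, with -0.03 on slide 1 and 2.87 on slide 2.

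The lists of growing oocytes, granulosa cells and theca cells had medians between -0.05 and 0.08. Of the oocyte genes of small follicles only 9 of 18 passed the filter on dim probes, 8 of them with a positive difference and a median of 0.23, against 43.9% and -0.04 over all genes, and none passed. Figla, a transcription factor of the oocyte, differed by 0.70 ± 0.47 (± SE) and Kit, the receptor for kit ligand, by 0.38 ± 0.38. In growing oocytes 15 of 21 tested members had a positive difference, with a median of 0.08. Zp2 and Zp3, coat proteins of the egg, differed by 0.49 ± 0.45 and 0.20 ± 0.35.

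Granulosa genes had a median of 0.03 over 25 members. Amh, the anti-Müllerian hormone, had log2 signals of 4.29, 4.80, 4.39 and 4.71 on BRCA1+/- olaparib arrays 1 to 4, against 4.29, 3.96, 5.15 and 4.02 on WT vehicle arrays 1 to 4. Fshr, the receptor for follicle-stimulating hormone, was at 0.99 ± 0.38 in BRCA1+/- olaparib and 0.84 ± 0.34 in WT vehicle (SD, n = 4 each), and Fst, the activin antagonist follistatin, differed by -0.40 ± 0.26 (± SE). Wt1, a transcription factor of granulosa and mesothelial cells, had log2 signals of 1.74, 1.69, 2.27 and 2.35 on BRCA1+/- olaparib arrays 1 to 4, against 1.58, 1.37, 1.29 and 1.08 on WT vehicle arrays 1 to 4, so all BRCA1+/- olaparib values lay above all WT vehicle values. Its difference was 0.68 ± 0.38 and did not pass.

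Theca and steroid synthesis genes had a median of -0.05. Within this list Cyp17a1, the enzyme that makes androgens and here named after its values were seen, had log2 signals of 4.77, 5.70, 4.61 and -1.93 on BRCA1+/- olaparib arrays 1 to 4, against 4.63, -1.57, 4.90 and -1.74 on WT vehicle arrays 1 to 4. BRCA1+/- olaparib replicate 4 and WT vehicle replicates 2 and 4 were low and the other 5 arrays high, and its difference of 1.73 ± 1.70 (± SE) was far within that spread. Cyp19a1, the aromatase of granulosa cells, also named after its values were seen, was lowest on the same 3 arrays, at -4.11 on BRCA1+/- olaparib replicate 4, against -4.75 and -5.30 on WT vehicle replicates 2 and 4. Medians of the corpus luteum, ovulatory, and inhibin, activin and BMP lists were -0.06, -0.03 and -0.03.

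Supporting cell types gave medians of 0.20 for stroma, 0.30 for smooth muscle and pericytes, -0.01 for endothelium and -0.08 for macrophages. In the smooth muscle list 12 of 14 members had a positive difference, against 43.9% of all genes, and 13 of 14 had the same sign on both slides, against 10242 of 20215. Cnn1, a contractile protein, differed by 0.99 ± 0.64 (± SE), 0.24 on slide 1 and 1.75 on slide 2. The list score was highest on BRCA1+/- olaparib replicate 3, an array of high oviduct score, at 0.65, and without the 6 such arrays the list median was 0.10. In blood and immune lists the medians were 0.10 for T and NK cells, -0.13 over the 6 B cell genes tested, 0.98 over the 6 of neutrophils and mast cells and -0.22 for red blood cells. Of 17 neutrophil and mast cell genes on the array only those 6 passed the filter on dim probes. Of the 6, 3 were well above background on all 8 arrays. The neutrophil and mast cell median was -0.49 on slide 1 and 1.61 on slide 2. Its score was -0.85, -0.45, 0.78 and 1.39 on BRCA1+/- olaparib arrays 1 to 4, against -0.91, 0.31, -1.32 and -0.07 on WT vehicle arrays 1 to 4, so the 2 high arrays were those of high oviduct score. Without the 6 such arrays its median was -0.34. Hba-a3, an alpha globin chosen after its values were seen, had log2 signals of 4.02, -7.86, 4.23 and 5.24 on BRCA1+/- olaparib arrays 1 to 4, against 3.89, 4.81, 4.26 and 3.65 on WT vehicle arrays 1 to 4, so 1 array set its difference. Its probe may share signal with near-identical globin genes.

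Stress and response lists stayed between medians of -0.11 for the integrated and ER stress response and 0.19 for cholesterol synthesis. Hspa4l, a chaperone of the HSP110 family, had log2 signals of -1.55, -1.23, -0.67 and -1.0 on BRCA1+/- olaparib arrays 1 to 4, against -1.83, -2.39, -1.95 and -2.85 on WT vehicle arrays 1 to 4. All BRCA1+/- olaparib values lay above all WT vehicle values, a difference of 1.14 ± 0.48 (± SE, unadjusted p 0.0322, adjusted p 0.9998), while the heat shock list as a whole had a median of -0.08 with 12 of 19 members negative. Nr4a3, a nuclear receptor induced within minutes of a stimulus, had log2 signals of -3.48, -2.82, -3.98 and -3.83 on BRCA1+/- olaparib arrays 1 to 4, against -4.73, -4.04, -5.43 and -4.41 on WT vehicle arrays 1 to 4. Its groups were apart too, at a difference of 1.13 ± 0.48, in an immediate early list with a median of 0.05. A second, dimmer probe of Nr4a3 gave 0.51, and normexp background correction gave 0.14.

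Batf2, a transcription factor induced by interferons, had log2 signals of -5.72, -5.39, -5.16 and -5.71 on BRCA1+/- olaparib arrays 1 to 4, against -5.05, -4.82, -4.52 and -3.95 on WT vehicle arrays 1 to 4. All BRCA1+/- olaparib values lay below all WT vehicle values, and 1 BRCA1+/- olaparib array was well above background, against 4 WT vehicle arrays. The difference was -0.91 ± 0.36 (± SE, unadjusted p 0.0222), in an interferon list with a median of 0.02. Klf9, a transcription factor induced by glucocorticoids, had log2 signals of 2.32, 2.39, 2.23 and 2.24 on BRCA1+/- olaparib arrays 1 to 4, against 2.12, 1.98, 1.60 and 1.87 on WT vehicle arrays 1 to 4, with groups apart and a difference of 0.40 ± 0.21 that did not pass. The glucocorticoid list had 11 of 15 positive members and a median of 0.18. NRF2 and circadian lists had medians of 0.06 and 0.08.

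**Figure D3:**
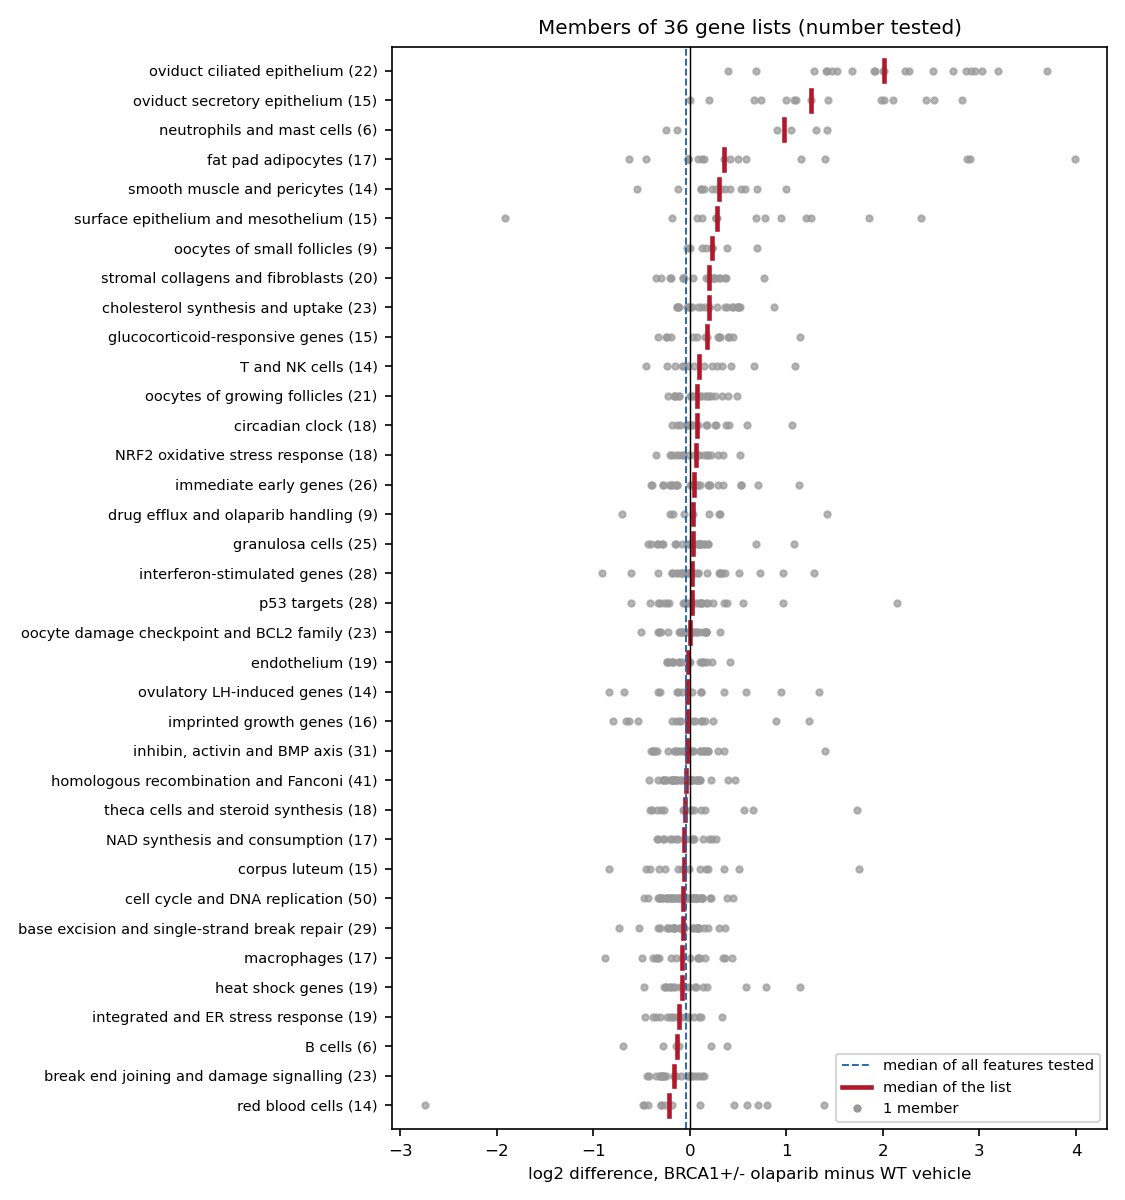
Log2 differences, BRCA1+/- olaparib minus WT vehicle (x axis), of the tested members of 36 gene lists (rows, number tested in brackets). Grey points are members, red bars list medians and the dashed line the median of all genes tested, -0.04. The 2 oviduct lists lie furthest to the right at 2.01 and 1.26, followed by neutrophils and mast cells at 0.98 over 6 genes.

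The largest list medians belonged to tissue next to the ovary. All 22 tested genes of ciliated oviduct epithelium had a positive difference, with a median of 2.01, and all 15 of secretory oviduct epithelium, with a median of 1.26, against 43.9% positive and a median of -0.04 over all genes. None passed. The filter on dim probes kept 22 of 26 ciliated and 15 of 19 secretory genes on the array. It can admit a dim gene through 1 group where that gene is high, so the shared sign is no support in itself. In each list 12 members were well above background on all 8 arrays. The ciliated score, a mean over the list of log2 signals centred on each gene, was -2.19, -1.53, 2.88 and 1.91 on BRCA1+/- olaparib arrays 1 to 4, against -1.67, -0.85, -2.14 and -2.66 on WT vehicle arrays 1 to 4. Replicates 3 and 4 of BRCA1+/- olaparib were high, and replicates 1 and 2 lay among the WT vehicle arrays. Both high arrays were on slide 2, and the list median was -0.41 on slide 1 and 4.42 on slide 2.

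The summed signal of the ciliated list, in multiples of the 75th percentile, ranged from 4.79 to 171 in BRCA1+/- olaparib, against 4.36 to 12.3 in WT vehicle. Foxj1, the master regulator of motile cilia, had log2 signals of -4.40, -2.92, 3.30 and 2.18 on BRCA1+/- olaparib arrays 1 to 4, against -2.93, -1.69, -4.58 and -4.47 on WT vehicle arrays 1 to 4. Dnai1, a dynein intermediate chain, was well above background on 3 BRCA1+/- olaparib and 0 WT vehicle arrays and was at least 3.81-fold higher (measured means -3.41 ± 2.00 in BRCA1+/- olaparib and -6.27 ± 0.71 in WT vehicle (SD, n = 4 each), unadjusted p 0.0643, adjusted p 0.9998). Its log2 difference was 0.57 after normexp background correction. Of the 22 genes, 13 to 20 were well above background on the single WT vehicle arrays, so some signal of this list was read on each of them. Whether it came from oviduct epithelium was not tested.

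The oviduct score moved with several genes named above. Without the 6 arrays of the series whose ciliated score was above 0, namely BRCA1+/- olaparib replicates 3 and 4, BRCA1+/- vehicle replicates 3 and 4 and WT olaparib replicates 1 and 3, the differences were 1.74 for Ptprh, 0.93 for Perp, 0.50 for Crybg2 and 1.18 for Dnai1. Of the 24 genes with the smallest p, all kept their sign and 4 became more than 1.5 times smaller, namely Rcvrn at -0.64, Asf1a at -0.53, Msc at -0.53 and Prm1 at -1.09. Kiss1 became more than 1.5 times larger at -1.78, and the other 19 lay between these limits, with 1.25 for Ccl1, 1.19 for H19 and -0.98 for Ly6g5b. Of all 99 named genes 29 became more than 1.5 times smaller, among them Rad52 at -0.08, Foxm1 at -0.08, Wt1 at 0.39, Cnn1 at 0.26 and Parp1 at -0.02. These values rest on 2 BRCA1+/- olaparib and 4 WT vehicle arrays, a choice made after the scores were seen. Limma called 0 genes there too, with 305 at an unadjusted p under 0.05, 155 higher and 150 lower. 

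Adipocyte genes of the fat pad had a median of 0.36 over 17 members. Adipoq, the adipocyte hormone adiponectin, had log2 signals of -0.34, -2.01, 2.68 and -0.45 on BRCA1+/- olaparib arrays 1 to 4, against 0.14, -7.55, -6.73 and -1.93 on WT vehicle arrays 1 to 4. WT vehicle replicates varied more than the difference of 3.99 ± 2.04 (± SE, adjusted p 0.9998), and the probe was well above background on 2 of them. The surface epithelium and mesothelium list had a median of 0.28. Its member Calb2, the calcium-binding protein calretinin of mesothelium, had log2 signals of 5.75, 3.56, 2.02 and 6.41 on BRCA1+/- olaparib arrays 1 to 4, against 5.35, 7.08, 5.76 and 7.21 on WT vehicle arrays 1 to 4. It was the other way round from the list, at a difference of -1.92 ± 0.88 (unadjusted p 0.0472), and BRCA1+/- olaparib overlapped WT vehicle.

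**Figure D4:**
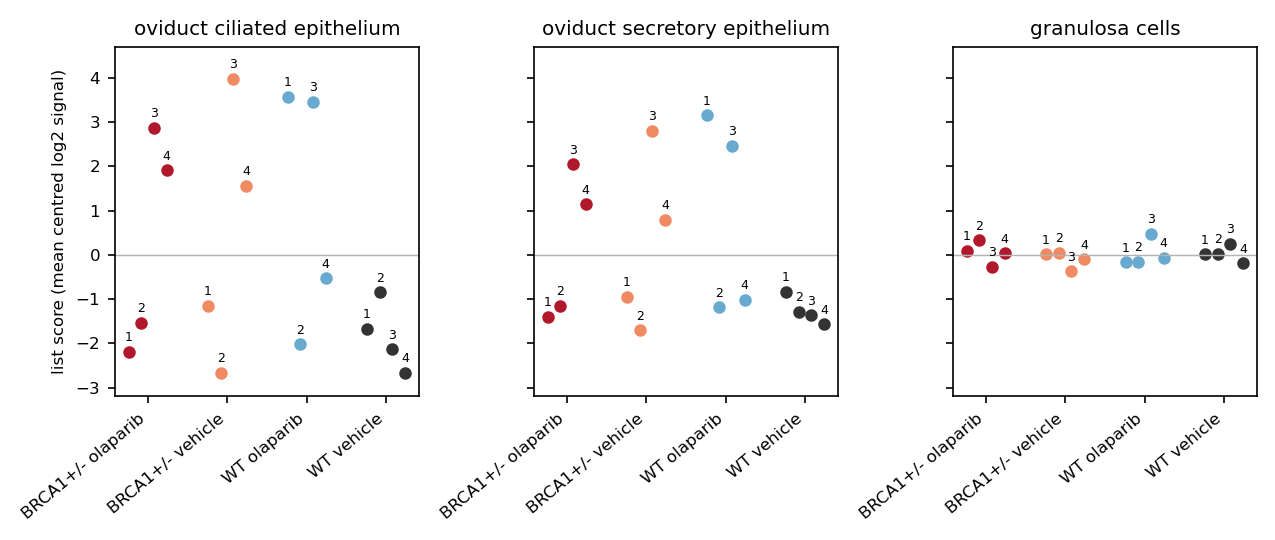
List scores (y axis, mean log2 signal after centring each gene over 16 arrays) of ciliated and secretory oviduct epithelium and of granulosa cells in the 4 groups (x axis), with numbers marking the replicate. BRCA1+/- olaparib replicates 3 and 4 reach 2.88 and 1.91 for the ciliated list, while all WT vehicle arrays lie at -0.85 or lower, and granulosa scores lie between -0.37 and 0.48 over all 16 arrays.

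Setting the double group beside the single ones asks whether a lost copy and the drug add up. The comparisons below share the 4 WT vehicle arrays, so they are not independent and only their values are given. At an unadjusted p under 0.05 there were 267 genes for BRCA1+/- olaparib (1.32%), 1112 for BRCA1+/- vehicle (5.5%) and 876 for WT olaparib (4.33%), each against WT vehicle. The median size of the difference was 0.168, 0.218 and 0.2 in the same order, and limma called 0 genes in each. BRCA1+/- olaparib against BRCA1+/- vehicle gave 236 genes (1.17%) and against WT olaparib 185 (0.915%), with 0 called. For each comparison 1011 genes would be expected at an unadjusted p under 0.05 if no gene differed.

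The departure of the double difference from the sum of the single differences was called for 0 of 20215 genes (lowest adjusted p 0.968 in limma), with 695 at an unadjusted p under 0.05 (3.44%). Here too 1011 would be expected if no gene departed. For H19 the log2 differences from WT vehicle were 1.23 in BRCA1+/- olaparib, 1.77 in BRCA1+/- vehicle and 1.63 in WT olaparib. Saal1 had -1.14 in BRCA1+/- olaparib, -1.72 in BRCA1+/- vehicle and -1.91 in WT olaparib, and the departure was 2.48 (unadjusted p 0.000406, adjusted p 0.968). In both genes the double group lay closer to WT vehicle than either single group did. Rbp7 had 1.37 in BRCA1+/- olaparib, 1.99 in BRCA1+/- vehicle and 1.90 in WT olaparib, and Hspa4l had 1.14 in BRCA1+/- olaparib, 1.98 in BRCA1+/- vehicle and 2.06 in WT olaparib.

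Kctd7 had differences of -1.07 in BRCA1+/- olaparib, -0.87 in BRCA1+/- vehicle and 0.00 in WT olaparib, so WT olaparib lay at the WT vehicle level for this gene. Bmx had 0.83 in BRCA1+/- olaparib, 0.99 in BRCA1+/- vehicle and 0.19 in WT olaparib, with BRCA1+/- vehicle farthest from WT vehicle. Asf1a had -0.94 in BRCA1+/- olaparib, -0.20 in BRCA1+/- vehicle and -0.44 in WT olaparib and Cnih3 had -0.62 in BRCA1+/- olaparib, -0.13 in BRCA1+/- vehicle and -0.30 in WT olaparib, genes for which the double difference was the largest of the 3. Both were picked by their p in the double comparison, a choice that favours a large double difference. For Brca1 the differences were -0.28 in BRCA1+/- olaparib, -0.67 in BRCA1+/- vehicle and -0.12 in WT olaparib, with the lowest level in BRCA1+/- vehicle. None of these departures passed, and the 95% interval of a departure reached 0.896 to either side at the median.

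**Figure D5:**
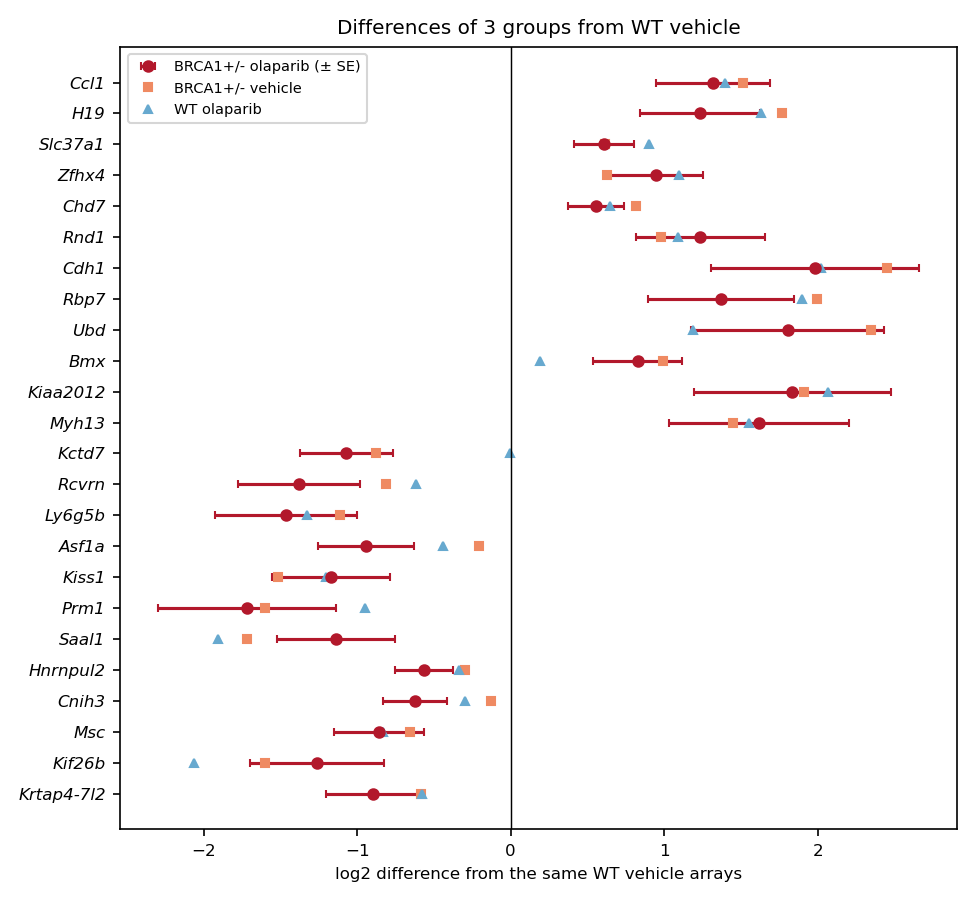
Log2 differences from the same 4 WT vehicle arrays (x axis) of BRCA1+/- olaparib (red circles ± SE), BRCA1+/- vehicle (orange squares) and WT olaparib (blue triangles) for the 24 genes with the smallest unadjusted p in the double comparison (rows). The double difference is nearest to 0 of the 3 for Ccl1, H19, Slc37a1, Chd7, Cdh1, Rbp7, Kiaa2012, Kiss1, Saal1 and Kif26b. It lies between the single differences for Zfhx4, Ubd and Bmx, and is farthest from 0 for the rest, among them Asf1a, Cnih3 and Rcvrn. The choice of genes by the double comparison favours a large double difference.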

How the data were processed

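Total RNA of 16 rat ovaries, extracted with the RNeasy Mini kit and labelled with Cy3, was hybridised to single-colour Agilent arrays. The authors scanned spot intensity (processed, mean and background signal) and quantified it in Agilent's Feature Extraction, version 10.7 in the submitters' processing notes and 10.7.1.1 per the file headers. Their deposited log2 values matched the same scaling that was applied here (Pearson r 1 on each array). The authors' test is not given in the sources used here.

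Each array held 62976 spots and 45598 non-control probes, of which 12 had no usable spot. Spots of a probe were averaged, and log2 processed signals were set against the array's 75th percentile. The 26808 probes well above background in at least 3 arrays of a group were kept. Probes were named through transcript accession (21229), symbol (9328) or synonym (321) in a RefSeq table of the rat, 5270 kept the file's name and 9450 had none. The brightest probe stood for a gene, giving 20215 features, called genes, 14464 with a symbol other than a placeholder. Positions are those of the files (rn4), with no genome to check them.

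Differences were fitted in limma 3.58.1 (R 4.3.3), two-sided, with a mean for each of 4 groups over 16 arrays (12 residual and 2.43 prior degrees of freedom) and Benjamini-Hochberg adjustment over all genes, called under 0.05. Fitting was tested on simulated data with independent noise for each gene. Those data lacked the variation that genes share on these arrays, so they check only the code. For a gene with 0 arrays of a group well above background the fold is a bound, computed after its dim arrays were set to at least the array's dimmest detected probe. That bound concerns the measured means of the processed signal only, not their sampling error or another background correction. Precision is limited by 4 arrays a group.

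Named genes are Brca1, Parp1 and Parp2, the 12 with the smallest p in each direction, up to 5 detected in 1 group only, and the members with the smallest p of 36 gene lists (at most 2 a list here). Cdkn1a, Tp63, Mki67, Zp3, Amh, Fshr, Foxj1, Cyp17a1, Cyp19a1 and Hba-a3 were named outside that rule as well-known members or after their values were seen. Members and lists were chosen with earlier results of these data known. Alternatives covered background correction, scaling, filter, probe choice, variance model, slide and replicate block, and each array left out. Same-numbered replicates were not taken as pairs. Some list members are not reported here.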

Additional observations from a re-analysis of the deposited data

Results flagged for a closer look

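In 14 of 270 groups of 4 arrays, over 99 named genes and 36 list scores, 1 array stood apart from the other 3 by Dixon's criterion, and chance alone does this in about 1 of 20 groups. Log2 signals are given with the nearest other array of the same group. In BRCA1+/- olaparib the arrays that stood apart were replicate 3 for Kctd7 (-4.21, nearest -3.23), replicate 3 for Pla2g10 (-3.35, nearest -5.08), replicate 1 for Hnrnpul2 (0.75, nearest 0.22) and replicate 2 for Pdgfrb, a pericyte receptor (2.68, nearest 2.23).

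In WT vehicle replicate 3 stood apart for 4 genes. They were Prm1 (-2.55, nearest -4.82), the macrophage chemokine receptor Cx3cr1 (1.48, nearest -1.40), the heat shock gene Hspa1l (-5.90, nearest -4.32) and Mest (2.83, nearest 2.40). The others were replicate 2 for the B cell receptor Cd22 (3.21, nearest 1.67) and replicate 4 for Prkdc (-1.39, nearest -1.30). Without WT vehicle replicate 2 the Cd22 difference was 0.12 in place of -0.28.

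Among list scores, BRCA1+/- olaparib replicate 2 stood apart for ovulatory genes (0.24, nearest -0.10), endothelium (0.47, nearest -0.12) and red blood cells (-1.53, nearest 0.21), and replicate 4 for theca cells and steroid synthesis (-0.44, nearest 0.13).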

How the results depend on the processing

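Limma called 0 genes for BRCA1+/- olaparib against WT vehicle under all 23 alternatives (adjusted p at least 0.465, 26 to 843 genes at an unadjusted p under 0.05) and 0 for the departure under all 21 (at least 0.470, 294 to 1403 genes). Leaving out each of the 8 arrays in turn gave 0 calls, with 162 to 474 genes at an unadjusted p under 0.05 for the double comparison and 415 to 1376 for the departure. With the replicate number as a block there were 0 calls, 504 genes at an unadjusted p under 0.05 for the double comparison and 1403 for the departure. Deviations of same-numbered arrays correlated at 0.330, -0.0632, 0.258 and 0.364 for replicates 1 to 4, and those of the 12 other pairs at -0.390 to 0.316. With 1 of 4 under 0.1, the numbers were not taken as pairs, although 3 of 4 BRCA1+/- olaparib arrays correlated best with their own number. Each number also filled the same slide and the same slide row in every group, so it is a block of position as well. The highest Pearson correlation between any of the 8 arrays, 0.992, was that of BRCA1+/- olaparib replicate 1 with WT vehicle replicate 1. Of the named genes' differences 21 values in 17 genes turned sign, 8 of them within a single slide. After normexp background correction the log2 differences were -0.063 for Ccl1, -0.081 for Zfhx4, -0.081 for Dgkb, -0.081 for Fpr1 and -0.030 for Hspa1l. By a second probe they were -0.077 for Slc37a1, -0.26 for Dtx3l, -0.34 for Bhlhe41 and 0.021 for Nmnat1. With each array left out, Parp2 ranged from -0.33 to 0.060, positive without BRCA1+/- olaparib replicate 3 or WT vehicle replicate 2, and Cd22 from -0.44 to 0.12, positive without WT vehicle replicate 2. Oxtr was at -0.41 without the 6 arrays of high oviduct score. Within slide 1 the turned values were -0.10 for Oxtr, -0.022 for Rhd, -0.058 for Cldn3, -0.10 for Dtx3l and -0.027 for Nr1i2, and within slide 2 they were 0.22 for Parp2, -0.081 for Insl3 and 0.14 for Sdf2l1. The cause of these turns was not tested. The ciliated and secretory oviduct medians were 0.05 and -0.06 without those 6 arrays, which were chosen by the ciliated list.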
